A study of Mus musculus with 12 samples.

Results

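The set described here holds 10 of the 24197 genes measured in E0771 tumors, chosen by gene symbol: 7 epithelial genes (Cdh1, Epcam, Cldn3, Cldn4, Cldn7, Esrp1 and Grhl2) and 3 genes of the mesenchymal state (Cdh2, Vim and Zeb1). All 10 were found once each. E0771 is a mouse mammary carcinoma line, and its cells were grown in a mammary fat pad (the fourth) in female C57/BL6N mice, so a tumor sample can also hold fat pad tissue of the host. Polyadenylated RNA was sequenced from 12 libraries in 6 groups of 2, and each library was made from a pool of RNA of 2 to 3 tumors. The question was how the tumors changed over time after cyclophosphamide (CPA), a prodrug whose liver metabolites alkylate DNA. Vehicle mice received PBS and were 9 to 10 weeks old. Mice of the day 1, day 2 and day 3 groups were of the same age and received 130 mg/kg CPA on day 0. Day 6 mice received the same single dose and were 11 weeks old, while day 12 mice received a second dose on day 6 and were 12 weeks old, so that from day 6 on, time after CPA and age cannot be told apart. All groups carried the same line in the same strain. The dose given here is that of the labels. The paper also used other doses in E0771 tumors. Its legend for the E0771 growth curve gives a dose that differs from the labels. One day 1 library has a title that names CPA and a treatment entry that names vehicle, and it was kept with day 1.

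Epithelial cells hold to each other through adherens junctions, built on E-cadherin (CDH1), and seal the space between them with tight junctions, built on claudins such as CLDN3, CLDN4 and CLDN7. EPCAM sits beside both on the lateral membrane. Carcinoma cells can give up this state for a mesenchymal one, in which the intermediate filament vimentin (VIM) is abundant and repressors such as ZEB1 keep epithelial genes silent. Levels below are FPKM, counts scaled to gene length and library total, so that genes of different length can be compared. The deposited group values turned out to be the mean of 2 libraries, and the counts of both could be worked out from them. Library A is the one with the larger total in each group and library B the one with the smaller total. Neither can be tied to a labelled pool.

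The totals were 33586715 to 46414557 in the vehicle, day 1, day 2, day 3 and day 6 libraries, and 35703972 (A) and 18726093 (B) on day 12. The day 12 libraries stood apart from each other. Over the 11695 genes at 1 FPKM or more in any group, the SD of the log2 difference between the 2 libraries of a group was 0.79 on day 12 and 0.30 to 0.52 in the other 5 groups. Day 12 values of the 10 genes are therefore given for each library, and calls on day 12 also with each library left out. In bulk tumor RNA, fewer cells of a type and less RNA per cell cannot be told apart.

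Before day 12, Vim and Zeb1 were the only genes of the set over 1 FPKM. Vim was at 1062 to 1554 FPKM by group and Zeb1 at 4.96 to 6.09, while each of the 7 epithelial genes stayed under 0.35 FPKM by group and Cdh2, which codes for N-cadherin, under 0.041. On day 12 Cdh1, Epcam, Cldn3, Cldn4 and Cldn7 rose to 1.33 to 6.30 FPKM, and Vim and Zeb1 fell to 886 and 2.62 FPKM. Both day 12 libraries lay above both vehicle libraries for the 5 junction genes and below both for Vim and Zeb1, where 26.9% of the 11393 genes at 1 FPKM or more lay above in this way and 47.1% below. The junction genes were 3.81 to 10.8 times higher in one day 12 library than in the other. Vim was the most abundant gene of the set in every library, on day 12 as well.

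**Figure D1:**
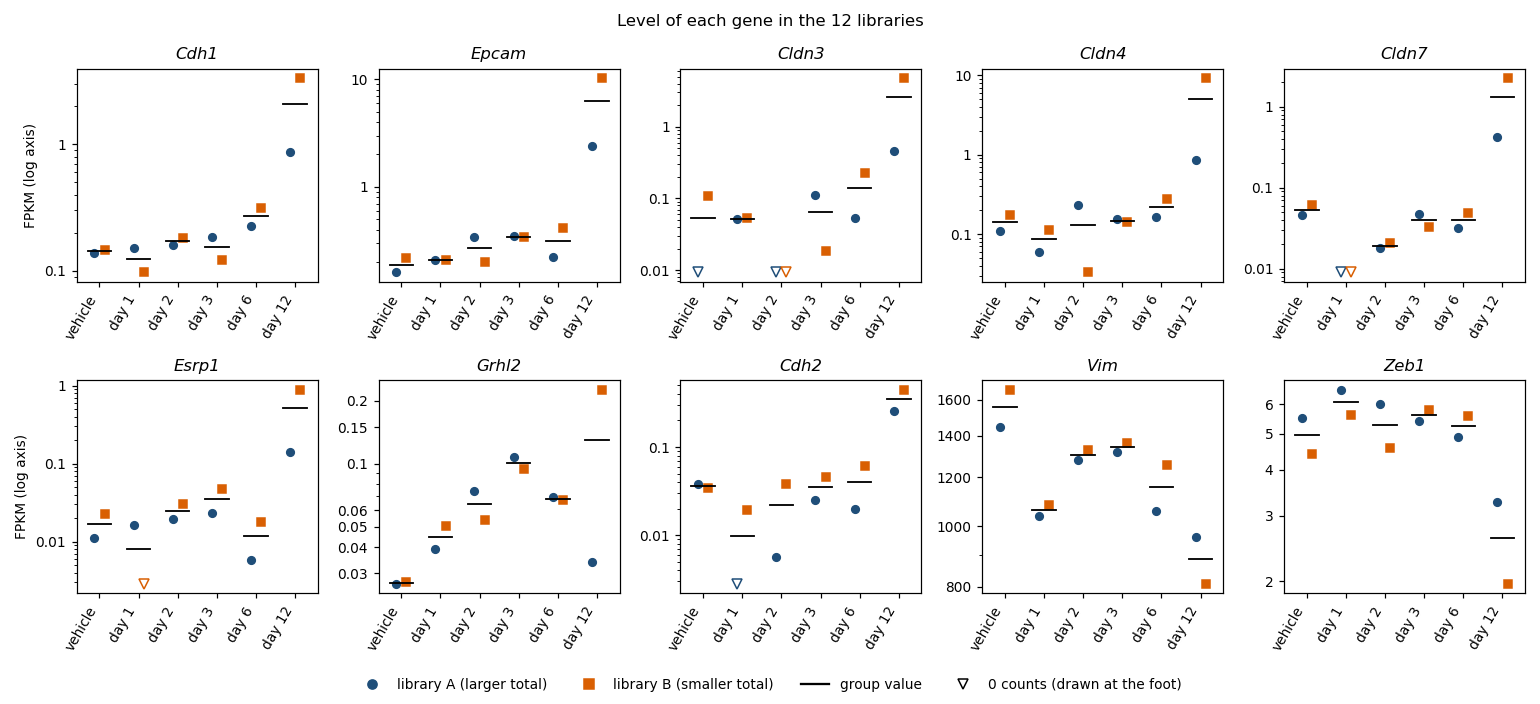
Level of the 10 genes in the 12 libraries, in FPKM on log axes whose range differs between panels, by group, with library A as circles, library B as squares and the group value as a line. Open triangles at the foot mark libraries with 0 counts. The epithelial genes sit low from vehicle to day 6 and stand highest in day 12 library B, where Epcam is at 10.2 FPKM and Cldn4 at 9.17, while Vim and Zeb1 stand lowest there, at 809 and 1.97.

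Cdh1 codes for E-cadherin, the calcium-dependent adhesion molecule of the epithelial adherens junction, and lies on chromosome 8 (mm9, 109127267 to 109194146). It was at 0.140 and 0.148 FPKM in the vehicle libraries (A and B in that order, as in all pairs of values), 0.151 and 0.0972 on day 1, 0.160 and 0.182 on day 2, 0.184 and 0.122 on day 3, 0.228 and 0.316 on day 6, and 0.870 and 3.32 on day 12. The day 12 values rest on 137 and 274 counts, and those of vehicle on 28 and 29. Day 2 and day 6 also lay above vehicle in both libraries, at a level under 1 FPKM, where 14.8% and 32.9% of all genes at 1 FPKM or more did so. Those shares leave out genes as low as Cdh1 was on these days. The group value was 14.6-fold higher on day 12 than in vehicle. The fold is lower, 3.17 on the log2 scale, once 0.1 FPKM is added to both values, the scale used for all log2 ratios here.

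Epcam codes for the epithelial cell adhesion molecule, a surface glycoprotein of most simple epithelia and carcinomas (chromosome 17, mm9, 88035318 to 88050467). Its levels were 0.160 and 0.218 FPKM in vehicle, 0.209 and 0.208 on day 1, 0.342 and 0.202 on day 2, 0.349 and 0.342 on day 3, 0.222 and 0.413 on day 6, and 2.39 and 10.2 on day 12. Days 3 and 6 lay above vehicle in both libraries, where 28.3% and 32.9% of all genes at 1 FPKM or more did so. Epcam was the one epithelial gene over 1 FPKM in both day 12 libraries. From vehicle to day 12 the group value went from 0.189 to 6.30 FPKM, a log2 ratio of 4.47.

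Claudins are multi-pass membrane proteins of the tight junction strand, and Cldn3 and Cldn4 lie near each other on chromosome 5 (mm9, 135462083 to 135463346 and 135420992 to 135422804). Cldn3 had 0 and 6 counts in the vehicle libraries, 3 and 3 on day 1, 0 and 0 on day 2, 6 and 1 on day 3, 3 and 12 on day 6, and 21 and 112 on day 12, which on day 12 is 0.466 and 4.74 FPKM. At 0 counts in day 2, levels of up to 0.0620 and 0.0707 FPKM remain possible (3 counts per library, counting error only). Cldn4 was at 0.109 and 0.174 FPKM in vehicle, 0.0595 and 0.112 on day 1, 0.231 and 0.0329 on day 2, 0.154 and 0.143 on day 3, 0.164 and 0.274 on day 6, and 0.850 and 9.17 on day 12. Cldn7 (chromosome 11, mm9, 69778922 to 69781388) was at 0.0455 and 0.0618 FPKM in vehicle, 0 and 0 on day 1, 0.0180 and 0.0205 on day 2, 0.0479 and 0.0323 on day 3, 0.0314 and 0.0488 on day 6, and 0.424 and 2.24 on day 12. All 3 claudins were highest on day 12 in both libraries, and Cldn7 had at most 4 counts in any earlier library. At those few counts, Cldn7 lay below both vehicle libraries on days 1 and 2. In this way 14.1% and 16.6% of all genes at 1 FPKM or more lay below on these days. Group values of Cldn3, Cldn4 and Cldn7 reached 2.60, 5.01 and 1.33 FPKM on day 12, which corresponds to log2 ratios of 4.14, 4.40 and 3.22.

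The stretches before the transcription start of Epcam, Cldn4 and Cldn3 are shown because these genes had the largest ratios, with the shared binding motif of ZEB1 and SNAI repressors, the E-box CAGGTG or CACCTG, in capitals. They are 250 bases long, end at the base before the start, and come from RefSeq on GRCm38.p6 (Epcam chr17:87635729-87635978, plus strand; Cldn4 chr5:134946935-134947184, minus strand; Cldn3 chr5:134985964-134986213, plus strand).
Epcam: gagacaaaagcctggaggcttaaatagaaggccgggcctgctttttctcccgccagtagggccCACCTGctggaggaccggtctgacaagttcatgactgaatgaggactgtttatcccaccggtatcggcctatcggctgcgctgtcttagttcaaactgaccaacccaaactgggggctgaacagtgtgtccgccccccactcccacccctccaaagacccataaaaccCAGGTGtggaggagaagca
Cldn4: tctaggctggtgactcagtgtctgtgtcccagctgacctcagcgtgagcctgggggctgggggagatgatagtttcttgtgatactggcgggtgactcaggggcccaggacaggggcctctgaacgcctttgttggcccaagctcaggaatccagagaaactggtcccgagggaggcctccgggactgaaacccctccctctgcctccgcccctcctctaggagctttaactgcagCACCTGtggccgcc
Cldn3: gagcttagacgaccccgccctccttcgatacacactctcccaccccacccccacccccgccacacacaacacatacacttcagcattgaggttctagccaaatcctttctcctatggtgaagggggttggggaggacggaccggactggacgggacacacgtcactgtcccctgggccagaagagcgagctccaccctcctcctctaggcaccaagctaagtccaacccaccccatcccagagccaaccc
The RefSeq windows, which reach 50 bases past the start, matched 5 of the 10 genes (Epcam, Cldn3, Cldn4, Cldn7 and Vim). Both strands were searched for the E-box and for AACCGG or CCGGTT, the core of the motif of Grainyhead factors such as GRHL2. Epcam held an E-box match at -187 and at -19 relative to the start. Cldn4 held matches at -14 and 12, and Cldn3 a match at 32, past the start and so not in the stretch shown. Of the 2 starts listed for Cldn7, the downstream one held E-box matches at -97 and -57 and the Grainyhead core at -63, directly before the second E-box match. The 30 bases around it (chr11:69965349-69965378, plus strand) have both motifs in capitals.
Cldn7: ccaagacttCCGGTTCAGGTGagtgtccct
The other Cldn7 window and that of Vim held neither. Of all 32851 windows of this length, 20.2% held the E-box and 6.83% the Grainyhead core. These matches describe letters and say nothing of binding.

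The epithelial regulators stayed under 1 FPKM in every library. Esrp1 codes for a splicing regulator that sets epithelial splice forms (chromosome 4, mm9, 11259079 to 11313930). It had 0 to 8 counts in each library up to day 6 and 20 and 66 on day 12, at 0.141 and 0.888 FPKM. Those 2 libraries lay above all 10 others. Esrp1 also lay above both vehicle libraries on day 3, with 4 and 8 counts against 2 and 4. On that day 28.3% of all genes at 1 FPKM or more did so. Grhl2, a Grainyhead transcription factor of epithelial genes (chromosome 15, mm9, 37162790 to 37293323), went another way. It was at 0.0267 and 0.0272 FPKM in vehicle, 0.0392 and 0.0502 on day 1, 0.0739 and 0.0542 on day 2, 0.108 and 0.0950 on day 3, 0.0693 and 0.0669 on day 6, and 0.0340 and 0.227 on day 12. Its libraries lay above vehicle on each of the 5 days, from 6 counts in each vehicle library. For days 1, 2, 3, 6 and 12 in turn, 29.2%, 14.8%, 28.3%, 32.9% and 26.9% of all genes at 1 FPKM or more did so. Day 12 library A also had 6 counts and lay below every library of days 1, 2, 3 and 6, while library B, with 21, was the highest of all.

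The 3 mesenchymal genes did not move together. Vim codes for vimentin (chromosome 2, mm9, 13495937 to 13504453) and was at 1447 and 1660 FPKM in vehicle, 1040 and 1085 on day 1, 1281 and 1329 on day 2, 1319 and 1364 on day 3, 1060 and 1255 on day 6, and 963 and 809 on day 12. Both libraries lay below both vehicle libraries on each of the 5 days, and the day 12 libraries were the lowest of the 12. For days 1, 2, 3 and 6 in turn, 14.1%, 16.6%, 19.6% and 21% of all genes at 1 FPKM or more lay below vehicle in this way, and 29.2%, 14.8%, 28.3% and 32.9% lay above. Zeb1, the zinc finger repressor that silences Cdh1 and Epcam in other settings (chromosome 18, mm9, 5591857 to 5775466), was at 5.51 and 4.42 FPKM in vehicle, 6.58 and 5.61 on day 1, 6.01 and 4.56 on day 2, 5.42 and 5.79 on day 3, 4.90 and 5.57 on day 6, and 3.28 and 1.97 on day 12. It overlapped vehicle on days 2, 3 and 6, lay above it on day 1, and below it on day 12. Cdh2 (chromosome 18, mm9, 16747385 to 16967558) codes for the cadherin often gained in the mesenchymal state, but had at most 12 counts in any library up to day 6. With 0 and 4 counts on day 1, Cdh2 lay below both vehicle libraries, as 14.1% of all genes at 1 FPKM or more did. On day 12 it had 43 and 39, at 0.259 and 0.448 FPKM, so that this gene was highest on the day on which Vim was lowest.

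A gene was counted as past 2-fold only if one of the compared group values reached 1 FPKM. By this rule 0 of the 10 genes were past 2-fold on day 1, 2, 3 or 6 in either direction. Only Vim and Zeb1 passed the FPKM minimum on those days. For days 1, 2, 3 and 6 in turn, the share of all genes past 2-fold higher was 0.398%, 0.766%, 1.45% and 7.36%, and the share lower was 0.209%, 0.536%, 0.608% and 0.442%. On day 12, Cdh1, Epcam, Cldn3, Cldn4 and Cldn7 were past 2-fold higher and none was lower, against 16.2% of 11393 genes higher and 9.33% lower. These 5 of the 7 genes that passed the minimum did so through day 12 itself, where they were high. They were at 0.0533 to 0.189 FPKM in vehicle, so on reaching 1 FPKM they were bound to be past 2-fold. The share of all genes is therefore no measure of how unusual these 5 calls were. The median gene shifted by -0.21 on the log2 scale on day 12. Relative to it, the ratios were 3.38 for Cdh1, 4.68 for Epcam, 4.35 for Cldn3, 4.62 for Cldn4 and 3.44 for Cldn7, -0.60 for Vim and -0.68 for Zeb1. Esrp1, Cdh2 and Grhl2, under the minimum, had uncorrected log2 ratios of 2.39, 1.74 and 0.86. Without day 12 library B, only Epcam stayed past 2-fold, since the other 4 were then under 1 FPKM (log2 ratios of 1.77 to 1.99). Without library A all 5 were past 2-fold higher and Zeb1 was past 2-fold lower, at -1.29.

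**Figure D2:**
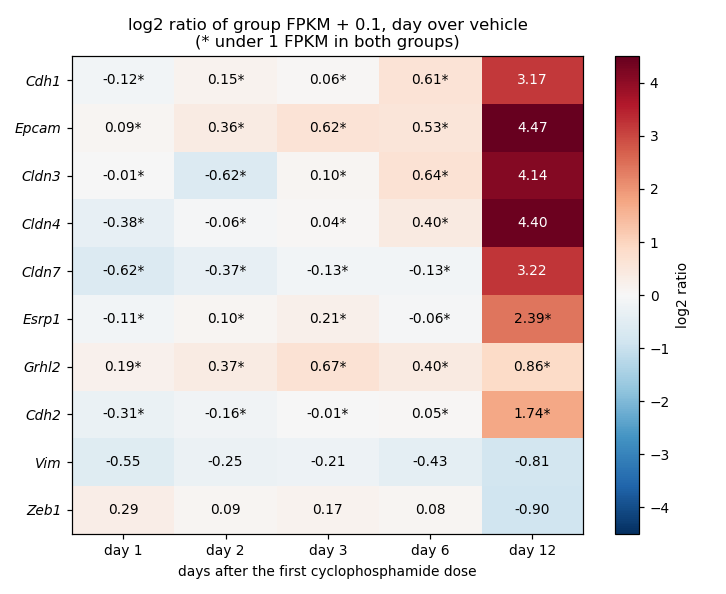
Log2 ratio of the group value plus 0.1 FPKM on each day over vehicle, with genes as rows and days as columns, red for higher and blue for lower, and an asterisk where both groups were under 1 FPKM. Days 1 to 6 lie between -0.62 and 0.67, and the day 12 column runs from -0.90 for Zeb1 to 4.47 for Epcam.

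The libraries also allowed a test, added after the data were seen: limma on log2(FPKM + 0.1) of all 12 libraries and 11695 genes, with p adjusted over all genes. The fit held 7 of the 10 genes, 5 of them only because they reached 1 FPKM on day 12. On day 12, 5 passed an adjusted p of 0.05 higher and 2 lower, where 20.4% of all genes passed higher and 34.2% lower. Differences from vehicle, as the mean over libraries on the log2 scale, were 2.90 ± 0.54 (SE, 2 libraries per group) for Cdh1 and 4.14 ± 0.57 for Epcam (limma adjusted p = 0.00224 and 0.00053). Cldn3, Cldn4 and Cldn7 rose by 3.52 ± 0.91, 3.63 ± 0.89 and 2.85 ± 0.69 (limma adjusted p = 0.0103, 0.00784 and 0.00762). Vim fell by 0.81 ± 0.17 and Zeb1 fell by 0.93 ± 0.24 on the same scale (limma adjusted p = 0.00417 and 0.00925). On days 1, 2, 3 and 6, limma called 0 of the 7, and at an unadjusted p under 0.05 it had 1 on day 1, 0 on days 2 and 3, and 1 on day 6, Vim both times, where 3.92%, 8.27%, 10.1% and 17.8% of all genes had such a p on days 1, 2, 3 and 6 in turn. For days 1, 2, 3 and 6 in turn, limma called 0%, 0.231%, 0.727% and 6.25% of all genes higher and 0%, 0.0684%, 0.137% and 0.581% lower. One day 1 library has the treatment entry vehicle. Since limma called 0% of all genes on day 1 with both libraries, its calls cannot check this entry. The log2 ratio of the Vim level on day 1 was -0.52 without day 1 library A and -0.58 without library B. Vim differed from vehicle by -0.55 (95% interval -0.93 to -0.16) on day 1 and -0.43 (-0.82 to -0.04) on day 6. The intervals for the junction genes on these days were wide, for Epcam on day 6 from -0.79 to 1.78. With no FPKM minimum, Esrp1 and Cdh2 also passed on day 12, at 2.06 ± 0.52 and 1.71 ± 0.24 (limma adjusted p = 0.0139 and 0.00135), and Grhl2 did not, at 0.72 ± 0.34 (adjusted p = 0.121), where 40.8% of 20184 genes passed in either direction. In that fit Cdh1, Epcam and Cldn7 passed too (limma adjusted p = 0.00305, 0.00127 and 0.00459). So did Cldn3 and Cldn4 (limma adjusted p = 0.0135 for both), and Vim and Zeb1, which were lower (limma adjusted p = 0.0231 and 0.0161). Limma takes 1 spread per gene for all groups, and the day 12 libraries differ more than the others. Its errors may therefore be too small for day 12 and too large for the earlier days, so the wide intervals there need not reflect the spread of those days. The Zeb1 call was lost without day 12 library B (-0.58, limma adjusted p = 0.0535) and without vehicle library A (-0.77, adjusted p = 0.0693), and the Cldn3 call without vehicle library A (3.00, adjusted p = 0.0724). The study describes the pools as independent of each other, so p-values measure the spread between pools and not between single tumors.

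Between day 6 and day 12, that is between 1 and 2 doses, limma called the 5 junction genes higher and Zeb1 lower, where 12.9% of all genes passed higher and 34.2% lower. The 5 junction genes were in this fit only because they reached 1 FPKM on day 12. The difference was 3.64 ± 0.57 for Epcam (limma adjusted p = 0.00333) and -1.01 ± 0.24 for Zeb1 (limma adjusted p = 0.00963). For Vim it was -0.39 ± 0.17, and this did not pass (limma adjusted p = 0.0917). With no FPKM minimum, Esrp1 and Cdh2 passed here as well, at 2.13 and 1.68 (limma adjusted p = 0.0181 and 0.00439), where 31.7% of 20184 genes passed in either direction. With 1 library of day 6 or day 12 left out, between 1 and 5 junction genes still passed in this comparison. Epcam was the one left when either day 6 library was dropped, 3 were left without day 12 library B (Cdh1, Epcam and Cldn7), and the Zeb1 call was lost without day 6 library B (-0.92, limma adjusted p = 0.0671).

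The 2 day 12 libraries differed in the epithelial genes far more than in the mesenchymal ones. Library B exceeded library A 3.81-fold for Cdh1, 4.27-fold for Epcam, 5.29-fold for Cldn7, 10.2-fold for Cldn3 and 10.8-fold for Cldn4. For Esrp1 and Grhl2 it was 6.29-fold and 6.67-fold higher, and for Cdh2 1.73-fold. Vim and Zeb1 were 1.19-fold and 1.66-fold higher in A. Markers of other cells in the fat pad differed between the same libraries. All 8 adipocyte markers were higher in B, 7.27-fold to 14.6-fold, and their summed level was 967 FPKM in A and 9527 in B, against 47.2 to 141.7 in the libraries of vehicle and days 1 to 6. Adiponectin (Adipoq) was at 24.4 and 251.6 FPKM on day 12. All 5 skeletal muscle markers were also higher in B, summing to 16.0 FPKM against 1.34 in A, and up to 10.1 in vehicle. Of the 6 leukocyte markers, 4 were lower in B and 2 higher. They summed to 379 FPKM in A and 89.3 in B, and to 130 and 78.4 without the neutrophil gene S100a9 (249 and 10.9), which made up most of the sum in A only. Fibroblast markers summed to 93.8 and 116.6. In library A, whose adipocyte sum was itself above that of every library before day 12, the 5 junction genes lay above both vehicle libraries. On day 12 all 8 adipocyte and all 6 leukocyte markers in the table were past 2-fold higher, as were 2 of 6 endothelial and 2 of 5 muscle markers. Without library B the adipocyte and leukocyte counts were the same, 0 endothelial markers were higher, and 0 muscle markers were higher and 3 lower. Without library A, 5 leukocyte, 3 endothelial and 3 muscle markers were higher. The part of fat pad tissue, and of the lower total of library B, in the day 12 values was not tested.

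**Figure D3:**
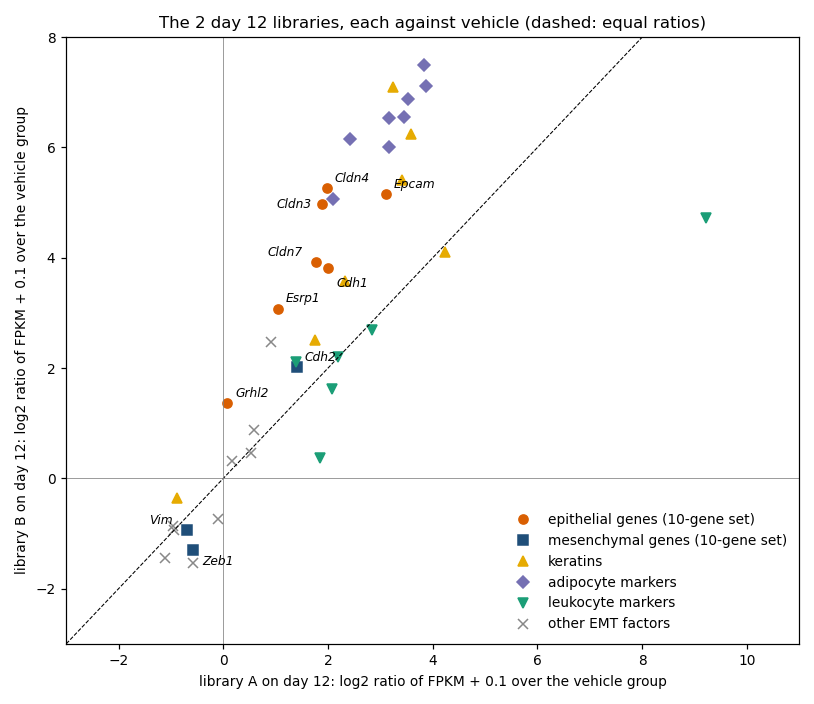
The day 12 libraries against the vehicle group value, as the log2 ratio of FPKM + 0.1 in library A (x axis) and library B (y axis), with the 10 genes named and 4 other gene lists as symbols. The dashed line marks equal ratios. The 7 epithelial genes and the 8 adipocyte markers lie above the line, and Vim, Zeb1 and 4 of the 6 leukocyte markers lie below it.

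Keratins, the intermediate filaments of epithelial cells, were used to check the labelled tissue. Krt8 was abundant throughout, at 125 FPKM in vehicle and at 67.3 and 97.1 in the day 12 libraries, without its usual partner Krt18, which was under 0.80 FPKM by group up to day 6. On day 12, 5 of the 7 keratins were past 2-fold higher (4 without library B, 6 without library A). Krt18 was at 7.30 and 46.5 FPKM and Krt19 at 9.83 and 144 in libraries A and B, a spread like that of the junction genes, whereas the basal keratin Krt14 was at 5.47 and 4.99. Of the 10 milk and luminal genes, 2 passed the minimum and were past 2-fold higher: Gata3, a transcription factor of the luminal lineage, at 0.125 FPKM in vehicle and 2.87 on day 12, and the prolactin receptor gene Prlr at 0.0465 and 1.45. In libraries A and B they were at 0.880 and 4.87 FPKM for Gata3 and at 0.278 and 2.62 for Prlr, so that without library B neither reached 1 FPKM and neither was called. Without library A, 3 of the 10 were called. Another 2 of the list were listed at 0 in every group.

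**Figure D4:**
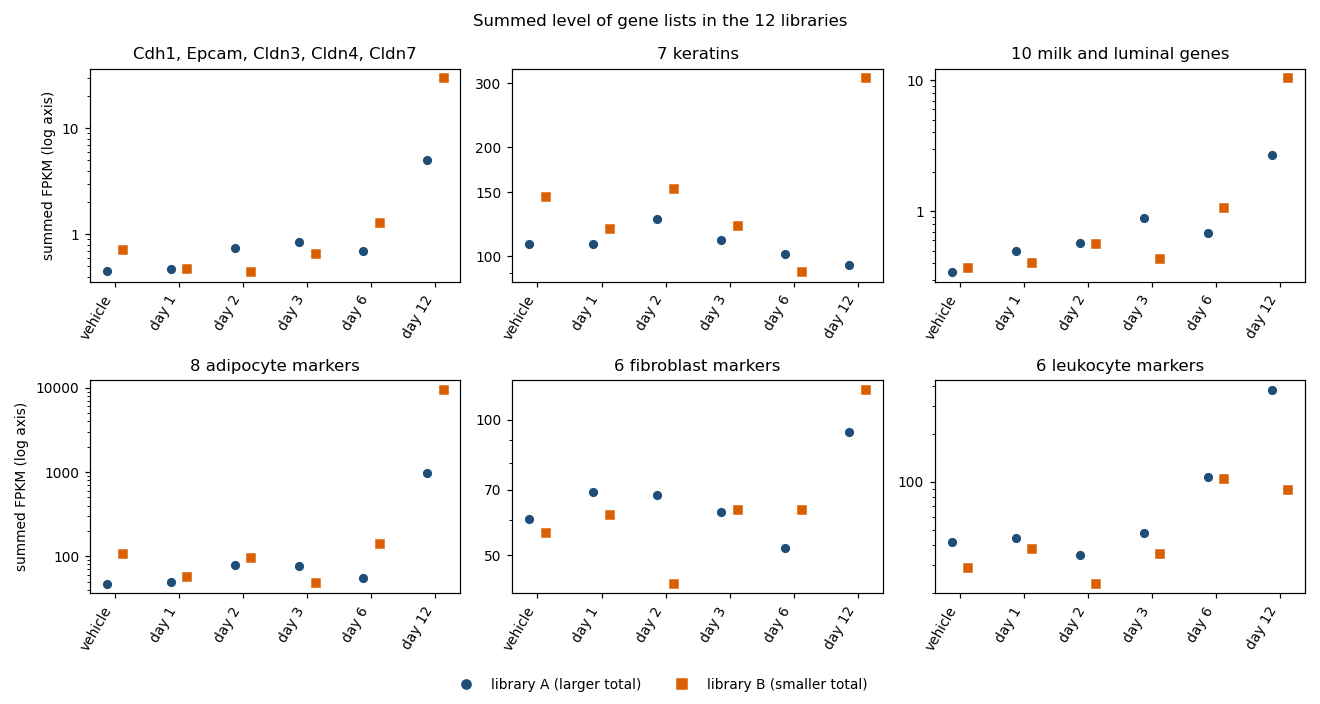
Summed FPKM of the 5 junction genes and of 5 other gene lists in each library, on log axes whose range differs between panels, by group, with library A as circles and library B as squares. The junction genes, the adipocyte markers and the milk and luminal genes are all highest in day 12 library B, next in day 12 library A, while the leukocyte markers are highest in library A.

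Of 17 other tight junction genes, 6 passed the minimum on day 12, with 2 past 2-fold higher and 2 lower, with either day 12 library left out as well. The median log2 ratio of all 17 was 0.79, beside 0.07 for the 19272 genes with a value in vehicle or on day 12 and no minimum. F11r, which codes for the adhesion molecule JAM-A, went from 2.82 to 9.58 FPKM and Lsr, a gene of the tricellular junction, from 0.446 to 3.52. The scaffold gene Tjp1 (ZO-1) went from 7.20 to 1.99 FPKM, and the polarity gene Pard3 from 4.10 to 1.48. Of 12 catenin and desmosome genes, 1 of the 7 that passed the minimum was past 2-fold higher, Perp, a desmosome component, at 0.0408 FPKM in vehicle and 1.21 on day 12. Perp was at 0.708 FPKM in library A and 1.71 in library B, and without library B 0 of these genes were called. Without library A, 2 were higher and 1 lower. The catenin genes Ctnnb1 and Ctnna1, whose products anchor cadherins, were at 57.5 and 28.8 FPKM in vehicle and 48.4 and 21.8 on day 12. Among 16 other epithelial regulators and membrane proteases, 3 were past 2-fold higher, among them the protease inhibitor gene Spint1 (3.04 FPKM on day 12) and the protease gene St14 (1.43 FPKM), and 1 was lower, the transcription factor gene Klf5, from 3.41 to 1.08 FPKM. Without library B, Spint1 alone was called higher, with St14 at a log2 ratio of 0.81, and Klf5 lower. Without library A, 6 were higher and 1 lower.

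Of 9 other transcription factors of the epithelial-mesenchymal transition, 7 passed the minimum. On day 12, 0 were past 2-fold higher and 1 was lower (2 lower without library A). The median ratio of the 9 was -0.38 on the log2 scale. It was -0.21 for all genes at 1 FPKM or more and 0.07 for all genes with no minimum. Twist1 went from 13.8 to 5.64 FPKM. Snai1, Twist2 and Tcf3 had ratios of -0.98, -0.94 and -0.91, next to that of Zeb1. Zeb2 (5.03 FPKM in vehicle, 7.33 and 6.93 on day 12), Tcf4 (6.81, then 7.68 and 8.47), and Snai2 and Foxc2, both under 1 FPKM, were higher in both day 12 libraries than the vehicle group. Of 13 structural and matrix genes of the mesenchymal state, 10 were past 2-fold higher and none lower, with a median ratio of 1.63. Without library A, 8 were higher, and without library B 10. S100a4 (401 FPKM in vehicle, 280.2 and 338 on day 12) and Col5a1 (24.1, then 17.3 and 13.4) lay below the vehicle group in both libraries. Col1a2 went from 7.15 to 86.8 FPKM, and Tagln, an actin-binding protein of smooth muscle and myofibroblasts, from 1.73 to 24.5. Fibroblast markers were past 2-fold higher for 4 of 6 and lower for 1 (3 and 1 without library B, 4 and 2 without library A). Among the higher ones, Dcn, a matrix proteoglycan gene, went from 2.45 to 45.2 FPKM. The lower one was the collagen gene Col6a3, which went from 39.3 to 16.0 FPKM. The part of fibroblasts in these values was not tested.

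The genes whose group values followed those of Cdh1 most closely over the 6 groups were Bscl2, Gstm5 and Pck1 (Pearson r of log2 values of 0.9990, 0.9989 and 0.9987). For Epcam they were Tdrp, Kcnk3 and Pdk4 (0.9998, 0.9993 and 0.9990). With one high group such values of r are common: 863 of 11694 genes were over 0.95 with Cdh1 and 655 with Epcam. For Vim, 22 genes were over 0.95, and the closest was Pkm, the pyruvate kinase gene, at 0.9938. In the day 12 libraries Pck1 was at 12.4 and 137.6 FPKM and Pdk4 at 0.414 and 4.44, again higher in B.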

How the data were processed

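RNA from E0771 tumors was measured by polyA-selected, stranded RNA-seq in 12 libraries, 2 pools of tumor RNA per group. The submitters' processing notes name TopHat2, featureCounts and edgeR, without versions, and the mm9 build. For every gene the authors gave 1 FPKM per group, next to ratios, fold changes and p-values from their own comparisons, which were not used.

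Each group FPKM proved to be the mean of 2 values, each a whole count over a whole gene length and a whole library total. Totals came out whole within 6.74e-06, and 20184 of 20186 genes with a value were resolved, including all 11695 genes at 1 FPKM or more in any group. Whether a count is a read or a fragment is not stated, and 44.7% to 47.3% of each total fell in resolved genes. Floors of 3 counts cover counting error only.

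Log2 ratios are of group FPKM + 0.1, day over vehicle, called past 2-fold at 1 FPKM or more in either group. The limma fit (trend, Benjamini-Hochberg adjustment over all genes) and each leave-out of a library, for the 10 genes and the lists, were added after the data were seen. The other alternatives were a pseudocount of 1 or 0.01, no minimum, recentring on the median gene and a fold of 1.5. The 10 genes and the lists were chosen with earlier results of these data known. Named genes are all 10, up to 4 per other list (past 2-fold on day 12 first, then by highest FPKM), and the 3 genes most like Cdh1, Epcam and Vim. One gene that the rule picked is not reported here. Krt8, S100a9, Zeb2, Tcf4, Snai2, Foxc2, S100a4, Col5a1 and the individual library values of other genes fell outside that rule and were chosen after their values were seen. Promoter sequences are from RefSeq (GRCm38.p6). Software was Python 3.11.15, numpy 2.4.6, pandas 2.3.3, numba 0.67.0, R 4.3.3, limma 3.58.1 and matplotlib 3.10.9.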

Additional observations from a re-analysis of the deposited data

Results flagged for a closer look

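For 6 of the 7 genes in the fit, the day 12 group differed from the day 6 group. The test was limma on day 12 minus day 6 over all 12 libraries, with p adjusted over 11695 genes. The 5 junction genes were in the fit only because they reached 1 FPKM on day 12, so their differences here were partly set by that rule. Esrp1, Grhl2 and Cdh2 were not in it. The log2 difference was 2.30 for Cdh1, 3.64 for Epcam, 2.89 for Cldn3, 3.24 for Cldn4 and 2.99 for Cldn7 (limma adjusted p = 0.0101, 0.00333, 0.0286, 0.0172 and 0.00947). It was -1.01 for Zeb1 (limma adjusted p = 0.00963). Each of the 5 junction genes was higher in both day 12 libraries than in both day 6 libraries, and Zeb1 was lower in both. The share of all genes separated in this way was counted only against vehicle, where 26.9% lay above and 47.1% below on day 12. By limma on day 12 minus day 6, 12.9% of all genes passed higher and 34.2% lower. With no FPKM minimum, Esrp1 and Cdh2 also differed, by 2.13 and 1.68 (limma adjusted p = 0.0181 and 0.00439). With 1 library of day 6 or day 12 left out, some of these calls were lost, as described above. The difference without day 12 library B was 1.34 for Cldn3 and 1.60 for Cldn4, and without day 6 library B it was -0.92 for Zeb1. Groups of 2 libraries are too small to tell which of the 2 is the outlying one.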

How the results depend on the processing

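With a pseudocount of 1 or 0.01 FPKM, recentring or no minimum, the fold rule gave the same sides for the 7 genes over 1 FPKM, and with no minimum Esrp1 and Cdh2 were past 2-fold higher on day 12 as well, which makes 7 genes in place of 5. At a fold of 1.5, 2 genes were lower on day 12 (Vim and Zeb1) in place of 0. The median gene was itself at -0.21 on the log2 scale on that day. Leaving out 1 library in turn gave 1 to 5 genes past 2-fold higher on day 12, with 1 when library B of day 12 was left out, and 0 to 1 lower, with Zeb1 past 2-fold without vehicle library B (-1.04) or day 12 library A (-1.29). The limma counts for day 12 over vehicle were 5 higher in each leave-out but 1 (4, without vehicle library A) and 1 to 2 lower. For day 12 over day 6 they ranged from 1 to 5 higher and 0 to 1 lower. The share of all genes past these altered fold rules, or called with 1 library left out, was not counted. How common such calls are among all genes is therefore not known. No call reversed direction under any setting run. No paired analysis was run, since each group was made from its own pools of excised tumors. Before day 12 the 7 epithelial genes rest on 0 to 59 counts per library and Cdh2 on 0 to 12, which limits what could be detected there. The spread that limma shares over all groups, day 12 included, may limit it further.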
